A study of Mus musculus with 4 samples.

Results

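The Wnt niche genes described here are 44 of the 39017 genes in the count table, taken by symbol and not by their measured values. They are the 19 Wnt ligands, the ligand acyltransferase Porcn, the 10 Frizzled receptors, the co-receptors Lrp5 and Lrp6, the 4 R-spondins, the 3 receptors Lgr4 to Lgr6, and the 5 feedback inhibitors Axin2, Notum, Nkd1, Znrf3 and Rnf43. Their transcripts were counted in 4 lung tumors of KP mice, with 1 library per tumor and 1 group, so no treatment or genotype could be compared and the measurement is the level of each gene and its spread between tumors. The mice were males on a C57BL/6 background with a Cre-activated K-ras G12D allele over wild type and floxed p53 on both chromosomes. Per the labels they were also heterozygous (fl/wt) for a floxed allele that is not named there, whereas the column names of the deposited log2 table call the tumors WT, and by the study's methods a control could carry floxed Slc2a1 on 1 chromosome or on none. Per the sample records, tumors were started with 1500 units of a lentivirus given into the trachea. The study's methods name only higher doses for its PGK-Cre lentivirus. The PGK promoter of that virus is active in most cell types, so Cre was not limited to a chosen lung cell. Tumors were macrodissected 22 weeks and 5 days later and dissociated, and RNA of the whole suspension was sequenced, so fewer cells of a type and less RNA per cell cannot be told apart.

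Wnt proteins are secreted lipid-modified ligands. Porcn, an enzyme of the endoplasmic reticulum, attaches the lipid that they need for release and for binding to Frizzled receptors, and binding of a canonical ligand to a Frizzled together with Lrp5 or Lrp6 stabilizes beta-catenin, which activates transcription with TCF/LEF factors. R-spondins bind Lgr receptors and keep the ubiquitin ligases Znrf3 and Rnf43 from removing Frizzled from the cell surface, while Axin2, Notum and Nkd1 are inhibitors that the pathway itself often induces. In the lung, Wnt signals are known for maintaining progenitor function of alveolar type 2 cells, the surfactant-producing cells from which tumors of this kind often arise.

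The start regions of 4 members are printed to show the sequence context of a leading ligand, a Frizzled and a pair of feedback inhibitors. Each is the 250 bases before a start site annotated by RefSeq on GRCm38.p6, on the strand of the gene. Capitals mark the letters CTTTGA, a form of the core word bound by TCF/LEF factors, and GGGCGG, the GC box. Each was searched on both strands, so that the reverse complements TCAAAG and CCGCCC are marked as well. Other forms of the TCF/LEF word were neither searched nor marked. The marked words do not overlap each other, although GC boxes can adjoin.
Wnt7a, chr6:91411354-91411603, minus strand: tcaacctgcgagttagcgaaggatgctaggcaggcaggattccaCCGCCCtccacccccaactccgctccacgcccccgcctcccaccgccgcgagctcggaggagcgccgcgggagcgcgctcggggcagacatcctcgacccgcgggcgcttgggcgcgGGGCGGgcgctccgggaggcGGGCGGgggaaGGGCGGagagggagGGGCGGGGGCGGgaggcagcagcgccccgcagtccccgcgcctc
Fzd1, chr5:4758217-4758466, minus strand: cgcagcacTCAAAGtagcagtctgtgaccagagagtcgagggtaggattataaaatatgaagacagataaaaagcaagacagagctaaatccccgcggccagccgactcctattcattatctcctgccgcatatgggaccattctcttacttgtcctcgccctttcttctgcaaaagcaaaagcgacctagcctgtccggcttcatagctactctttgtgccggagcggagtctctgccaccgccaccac
Axin2, chr11:108920099-108920348, plus strand: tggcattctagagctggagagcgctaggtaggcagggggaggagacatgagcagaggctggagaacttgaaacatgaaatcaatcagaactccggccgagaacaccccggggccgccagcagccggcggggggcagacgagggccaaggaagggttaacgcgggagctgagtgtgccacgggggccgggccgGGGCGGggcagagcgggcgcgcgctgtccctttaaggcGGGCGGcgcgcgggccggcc
Nkd1, chr8:88527383-88527632, plus strand: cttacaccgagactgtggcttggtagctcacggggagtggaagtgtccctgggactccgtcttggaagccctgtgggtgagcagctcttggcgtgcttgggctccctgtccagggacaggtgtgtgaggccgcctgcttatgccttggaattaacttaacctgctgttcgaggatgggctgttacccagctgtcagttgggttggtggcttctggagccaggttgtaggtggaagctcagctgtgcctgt
The Wnt7a window held 6 GC boxes and the Axin2 window held 2, and neither held CTTTGA. The Fzd1 window held 1 CTTTGA word, which began 242 bases before the start, and no GC box. Neither word was in the Nkd1 window, whose start lies downstream of the first start in the GENCODE annotation. Windows of this length were found for 28 of the 44 members, 32 windows in all. CTTTGA was in 3 of these 32 windows (9.38%), which belonged to Fzd1, Wnt5b and Wnt11, and in 13.8% of all 32851 windows. GGGCGG was in 21 of the 32 (65.6%) and in 32.7% of all windows. The member windows were also richer in G and C, with a median of 68.6% against 52.4% over all windows, and no test was made of either difference.

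Total counts were between 8151613 and 8799007 per tumor. Values are given as counts per 1000000 (CPM) after scaling for library composition, and a level compared between genes is given as CPM per kilobase of annotated exon. At this depth 3 counts, the one-sided 95% upper limit for a count of 0, were 0.330 to 0.370 CPM. Such limits cover counting error only. The tissue label was checked against lung markers, and all 8 alveolar type 2 markers were above a mean of 1 CPM, with summed levels of 32860 to 60875 CPM. Their sum was lowest in tumor 1, where 6 of the 8 genes had their lowest value. Club cell markers were lowest there too, with a sum of 129 CPM against 689 to 1111 in the other tumors and 4 of 6 genes at their lowest. The sum of epithelial markers was highest in tumor 1 (4719 CPM against 2950 to 3215), where Epcam, Krt8, Krt18 and Krt19 had their highest value and the other 2 of the 6, Cdh1 and Nkx2-1, their lowest. The sum of squamous markers was also highest there (29.2 CPM against 0.929 to 2.97), made mostly by Krt14 with 21.0 CPM, while the squamous markers Dsg3 and Sprr1b were at 0 counts in all tumors and Trp63 was at 0 in tumor 1. Tumor 3 had the lowest epithelial sum by a small margin (2950 CPM against 3047 in tumor 2), and only Epcam of the 6 genes was lowest there. Krt8, Krt18 and Krt19 were lowest in tumor 2. Tumor 3 also had the highest sums of markers of several other cell types. These were T cell (23.9 CPM against 6.71 to 7.67, 7 of 8 genes highest), macrophage (321 against 217 to 233, 5 of 8) and endothelial markers (318 against 233 to 238, 6 of 8). Smooth muscle (460.1 against 147 to 362, 5 of 6) and club markers (1111 against 129 to 699, 4 of 6) were among them too. Cd2 alone made 12.6 CPM of the T cell sum in tumor 3, where Lck was at its lowest. Of the macrophage markers, Mrc1 was at 108 CPM in tumor 3 against 39.7 to 53.3, while C1qa and C1qb were at their lowest.

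A mean of at least 1 CPM was reached by 23 of the 44 members, which were tested together with all 14225 genes above that level. These were 5 ligands, Porcn, 8 Frizzleds, both co-receptors, 2 Lgr receptors and all 5 feedback inhibitors. Of the 21 members below it, 15 had at most 3 counts in every tumor, and 8 of these had none in any. For spread between tumors, a chi-square statistic set the 4 counts of a gene against counting noise, and p was adjusted by Benjamini-Hochberg over all genes tested. The sources used here do not say whether each tumor came from a mouse of its own. As nothing separates a tumor from its library, these p-values measure the spread between 4 samples, of which library preparation is a component.

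**Figure D1:**
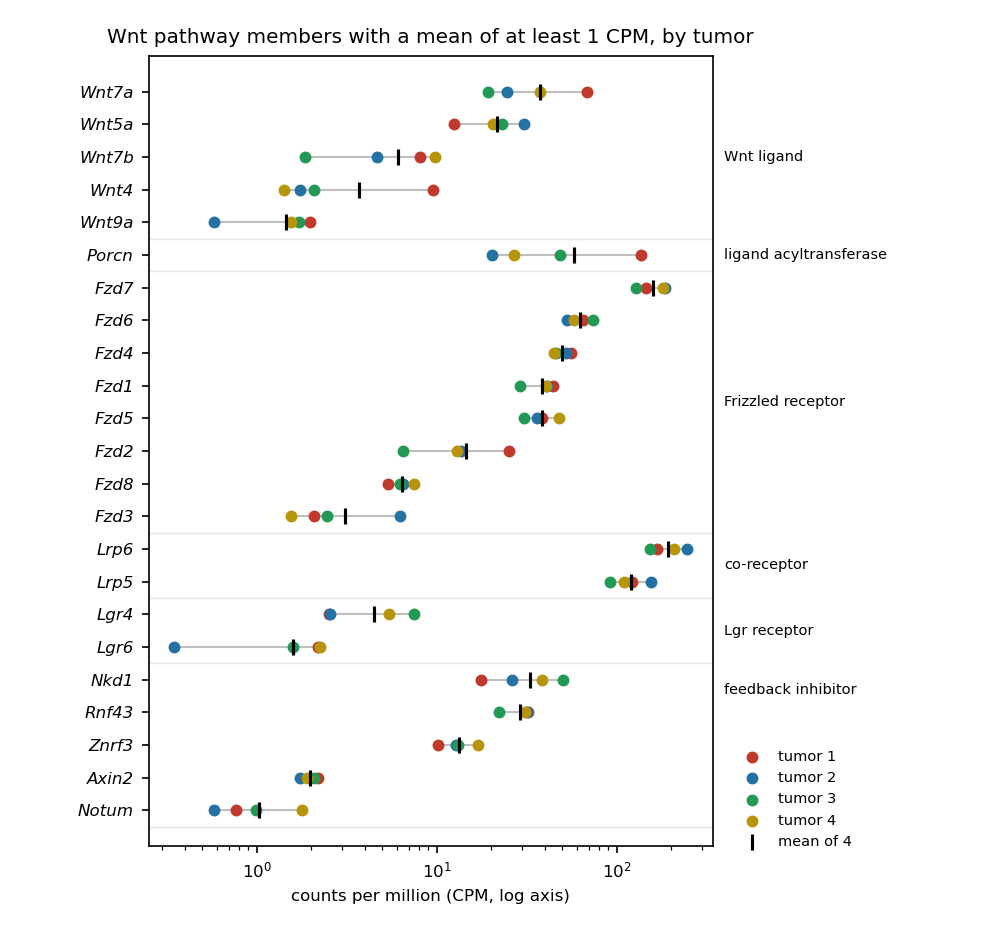
Levels of the 23 Wnt niche genes with a mean of at least 1 CPM in each of the 4 tumors. The horizontal log axis gives CPM, each colored point is 1 tumor, the black tick is the mean and the grey line joins the lowest and highest tumor. Porcn ranges from 20.2 to 137 CPM and Wnt4 from 1.43 to 9.57, whereas Fzd4, from 45.1 to 56.0, and Axin2, from 1.74 to 2.20, keep within narrow ranges.

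Per kilobase, the ligand message of these tumors was led by Wnt7a, with Wnt5a next by mean level. In CPM, Wnt5a was above Wnt7a in tumors 2 and 3. All 5 ligands above 1 CPM had at least 2-fold between the highest and lowest tumor, beside 28.1% of all genes tested, and 4 of them passed the test for spread, which 76.7% of all genes tested passed. Wnt7a, a ligand known from the dorsal limb ectoderm and the female reproductive tract, lies on chromosome 6 from 91363981 to 91411363 on the minus strand of GRCm38 and has 4 exons. It was at 68.8, 24.5, 19.3 and 37.5 CPM in tumors 1 to 4 (37.5 ± 22.2, SD, n = 4). Tumor 1 was highest and tumor 3 lowest, 3.57-fold apart (chi-square test, Benjamini-Hochberg adjusted p = 2.73e-72). Wnt5a, the prototype of ligands that act largely without beta-catenin (chromosome 14, 28504750 to 28527448, plus strand, 5 exons), was at 12.5, 30.4, 23.2 and 20.7 CPM (21.7 ± 7.38). Tumor 1, the highest for Wnt7a, was the lowest for Wnt5a, and tumor 2 was the highest, 2.43-fold apart (adjusted p = 7.48e-14). Without tumor 1 the SD of log2 CPM went from 0.80 to 0.48 for Wnt7a and from 0.53 to 0.28 for Wnt5a.

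Wnt7b, the closest relative of Wnt7a and a ligand of the developing lung epithelium, was at 8.14, 4.65, 1.85 and 9.75 CPM (6.10 ± 3.54). Tumor 3 was lowest and tumor 4 highest, 5.27-fold apart (adjusted p = 1.58e-10), and without tumor 3 the SD of log2 CPM was 0.55 in place of 1.06. Wnt4 was at 9.57 CPM in tumor 1 and at 1.74, 2.10 and 1.43 CPM in tumors 2 to 4 (3.71 ± 3.92). This was a difference carried by 1 tumor: the spread passed the test over all 4 (adjusted p = 2.74e-22) and not without tumor 1 (adjusted p = 0.641), where the mean was 1.76 CPM and the SD of log2 CPM 0.27 in place of 1.23. The annotated Wnt4 transcripts have runs of 80 nt or longer that match transcripts of 60 other genes at no less than 97% identity, so its counts are uncertain. Wnt9a was at 1.98, 0.581, 1.73 and 1.55 CPM (1.46 ± 0.612) and did not pass the test (adjusted p = 0.102). Without tumor 4 its adjusted p was 0.0485, and without tumor 2, its lowest, the SD of log2 CPM was 0.17 in place of 0.76.

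The other 14 ligands were at or close to the limit of detection. No reads were counted for Wnt1, Wnt3, Wnt6, Wnt8a, Wnt8b or Wnt16 in any tumor, and Wnt2, Wnt9b and Wnt10a had at most 3 counts. Wnt2 is a ligand of lung mesenchyme, and its 2, 2, 2 and 1 counts stood beside fibroblast marker sums of 326 to 569 CPM. Those sums were mostly Col1a1, Col1a2, Col3a1 and Dcn, whereas Lum was at 1.36 to 5.69 CPM and Tcf21 at 0.330 to 1.36 CPM. Wnt11 had 13, 2, 11 and 3 counts, Wnt3a 8, 6, 5 and 11, Wnt5b 10, 4, 2 and 8, Wnt10b 6, 0, 4 and 2, and Wnt2b 4, 0, 1 and 0. The highest of these in any tumor was Wnt11 in tumor 1, with 1.43 CPM.

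Per kilobase, the 19 ligands together summed to 29.4, 13.9, 11.4 and 18.3 CPM per kb in tumors 1 to 4 (18.2 ± 7.98). Wnt7a made up 73.8%, 55.7%, 53.4% and 64.4% of that sum (61.8% ± 9.25) and was the leading ligand in every tumor. Wnt5a made up 5.45%, 28.1%, 26.1% and 14.4% (18.5% ± 10.6). Thus tumor 1 had both the highest ligand sum and the smallest Wnt5a share. By mean share Wnt7b (6.67% ± 3.15) and Wnt4 (4.26% ± 2.56) followed. Wnt5a was second in tumors 2 to 4, whereas in tumor 1 Wnt4 (7.77%) and Wnt7b (5.66%) were above Wnt5a. Without the length correction the mean Wnt7a share was 47.8%, and Wnt5a had more CPM than Wnt7a in tumors 2 and 3.

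**Figure D2:**
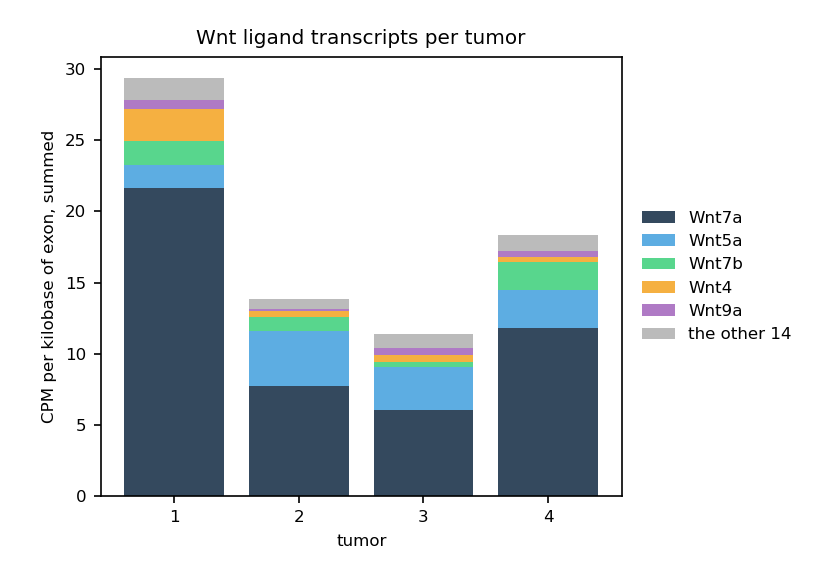
Summed level of the 19 Wnt ligands in each tumor, in CPM per kilobase, as stacked bars starting at 0 with 1 bar per tumor, a color for each of the 5 ligands above a mean of 1 CPM and grey for the other 14 together. Tumor 1 reaches 29.4 CPM per kb and tumor 3 reaches 11.4, and Wnt7a is the largest segment in every bar.

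Porcn, which every Wnt ligand is thought to need for release, was among the members with the largest fold difference between tumors, beside Wnt4 and Lgr6. No fold is given for Lgr6, since its lowest tumor was at the floor. The gene lies on chromosome X from 8193848 to 8206525 on the minus strand and has 13 exons. It was at 137, 20.2, 48.7 and 27.0 CPM in tumors 1 to 4 (58.2 ± 53.9). Tumor 1 was 2.81-fold above tumor 3, the next highest, and 6.78-fold above tumor 2, the lowest (adjusted p = 4.75e-280). Its SD of log2 CPM, 1.22, was the 551st largest among the 14225 genes tested. The spread did not rest on tumor 1 alone, as the SD of log2 CPM was still 0.65 without it, with a mean of 32.0 CPM. Tumor 1 was also the tumor with the highest Wnt7a and Wnt4 and with the epithelial, squamous, club and alveolar type 2 marker sums given above; 5 of 6 proliferation genes were highest there too, with a sum of 581 CPM against 383 to 467. The part of these differences in the Porcn value was not tested.

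Frizzled receptors had a summed level above that of the ligands in every tumor and a median SD of log2 CPM of 0.26, against 0.80 for the ligands tested. Fzd7 made up 46.4% ± 4.92 of the summed Frizzled level per kilobase. Fzd7, encoded by 1 exon on chromosome 1 (59482424 to 59486955, plus strand), was at 145, 186, 128 and 182 CPM (160 ± 28.4). Tumors 2 and 4 lay above tumors 1 and 3, with 1.46-fold between the extremes (adjusted p = 1.57e-26). Fzd6, a receptor better known for planar polarity, was at 64.9, 53.0, 74.3 and 57.8 CPM (62.5 ± 9.27, adjusted p = 3.95e-07), with tumor 3 highest. Fzd4, which also binds the ligand Norrin, was at 56.0, 52.2, 45.9 and 45.1 CPM (49.8 ± 5.21). It passed the test over the 4 tumors (adjusted p = 0.00416) and not without tumor 1 (adjusted p = 0.104).

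Fzd1 was at 44.1, 41.2, 29.1 and 40.6 CPM (38.8 ± 6.61). Tumor 3 alone was low, so that the adjusted p of 7.71e-06 became 0.534 and the SD of log2 CPM went from 0.27 to 0.06 without it. Fzd5 was at 38.5, 36.4, 30.6 and 47.9 CPM (38.4 ± 7.21, adjusted p = 5.67e-07), with tumor 4 highest and an SD of log2 CPM of 0.17 without that tumor in place of 0.27. Fzd8 was at 5.39, 6.50, 6.29 and 7.49 CPM (6.42 ± 0.863) and did not pass the test (adjusted p = 0.418).

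Fzd2 and Fzd3 were the Frizzleds with a difference of at least 2-fold. Fzd2, a close homolog of Fzd1 and Fzd7, was at 25.2, 13.6, 6.54 and 12.96 CPM (14.6 ± 7.77). Tumor 1 was highest and tumor 3 lowest, 3.85-fold apart (adjusted p = 4.36e-22), the same extremes as for Wnt7a. Among all genes tested, tumor 1 was highest for 31.4% and tumor 3 lowest for 32.5%. Fzd3 was at 2.09, 6.27, 2.47 and 1.55 CPM (3.09 ± 2.15, adjusted p = 5.69e-08). Tumor 2 alone was high: without it the mean was 2.03 CPM, the SD of log2 CPM was 0.33 in place of 0.85, and the adjusted p was 0.464. Fzd9 had no counts and Fzd10 had at most 1 count in a tumor. The 10 Frizzleds together summed to 77.8, 80.2, 64.8 and 80.3 CPM per kb (75.8 ± 7.39), with tumor 3 below the other tumors.

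The co-receptors Lrp6 and Lrp5, single-pass receptors that bind Wnt beside Frizzled, had the same highest and lowest tumor. Lrp6 was at 168, 247, 153 and 209 CPM (194 ± 42.6, adjusted p = 3.51e-50). Lrp5 was at 122, 156, 91.9 and 110 CPM (119.9 ± 27.0, adjusted p = 4.08e-32). For both, tumor 2 was highest and tumor 3 lowest, 1.62-fold apart for Lrp6 and 1.70-fold for Lrp5, whereas tumors 1 and 4 were in opposite order. Without tumor 2 the SD of log2 CPM of Lrp5 was 0.21 in place of 0.32. Lrp6 made up 53.6% ± 3.37 of their summed level per kilobase. Both counts are uncertain, since Lrp6 shares near-identical stretches with 19 other genes and Lrp5 with 1.

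R-spondin message was at the floor. Rspo4 had no counts, Rspo1 had 3, 2, 3 and 3 counts in tumors 1 to 4, Rspo2 had 1, 0, 1 and 0, and Rspo3 had 1 count in tumor 3 and none elsewhere. All 4 genes together made 4, 2, 5 and 3 counts, so no share within the family was computed and no difference between tumors was detectable at this depth.

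Of their receptors, Lgr4 was the highest per kilobase. It was at 2.53, 2.56, 7.53 and 5.47 CPM (4.52 ± 2.43), with tumors 3 and 4 above tumors 1 and 2 and 2.97-fold between the extremes (adjusted p = 5.43e-07). Lgr6 was at 20, 3, 13 and 19 counts, or 2.20, 0.348, 1.60 and 2.26 CPM (1.60 ± 0.887, adjusted p = 0.00789), where tumor 2 was at the floor. Without tumor 2 the adjusted p was 0.625 and the SD of log2 CPM 0.26 in place of 1.19. Lgr5, the stem cell marker of the intestine and a target of beta-catenin, was not tested: it had 6, 4, 2 and 0 counts, at most 0.660 CPM. By the one-sided 95% limit the 0 in tumor 4 allows up to 0.357 CPM, and near-identical stretches in 3 other genes make the Lgr5 counts uncertain. Lgr4 made up 72.9% ± 14.1 of the summed Lgr level per kilobase and Lgr6 22.6% ± 13.1.

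Feedback inhibitors differed widely in level and in spread. Nkd1, which binds dishevelled, was the most abundant per kilobase (chromosome 8, 88521354 to 88594884, plus strand, 8 exons). It was at 17.6, 26.3, 50.1 and 38.8 CPM (33.2 ± 14.2), highest in tumor 3 and lowest in tumor 1, 2.85-fold apart (adjusted p = 2.77e-33). Those extremes were the reverse of Wnt7a, but tumor 3 was highest for 30.2% and tumor 1 lowest for 30.4% of all genes tested. Its share of the summed level of the 5 inhibitors per kilobase was 35.9%, 45.0%, 65.3% and 51.7% (49.5% ± 12.4).

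The ubiquitin ligases that clear Frizzled from the membrane varied less. Rnf43 (chromosome 11, 87662722 to 87735539, plus strand, 10 exons) was at 32.0, 31.8, 22.2 and 30.9 CPM (29.2 ± 4.71). Tumor 3 alone was low, 1.44-fold below the highest, and the adjusted p of 0.000534 became 0.925 and the SD of log2 CPM went from 0.25 to 0.03 without it. Znrf3 was at 10.2, 12.9, 13.2 and 16.9 CPM (13.3 ± 2.74, adjusted p = 0.00323). It was lowest in tumor 1 and highest in tumor 4, and without either of these it did not pass (adjusted p = 0.0841 without tumor 1 and 0.163 without tumor 4).

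Axin2 and Notum, often used as readouts of beta-catenin activity, were low. Axin2, a scaffold of the beta-catenin destruction complex (chromosome 11, 108920349 to 108950783, plus strand, 11 exons), had 20, 15, 17 and 16 counts, or 2.20, 1.74, 2.10 and 1.90 CPM (1.99 ± 0.204, adjusted p = 0.916). Spread beyond counting noise was not detectable for Axin2 at this depth. Notum, a secreted enzyme that removes the lipid from Wnt ligands, had 7, 5, 8 and 15 counts, or 0.770, 0.581, 0.987 and 1.78 CPM (1.03 ± 0.529, adjusted p = 0.0901). Tumor 4 was highest for Notum, and the difference did not pass the test. Without tumor 4 the mean of Notum was 0.779 CPM, below the level needed for testing. The mean level of Nkd1 was 7.28 CPM per kb and that of Axin2 0.361. Nkd1 passed the test for spread and Axin2 did not, and the difference between their spreads was not tested.

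**Figure D3:**
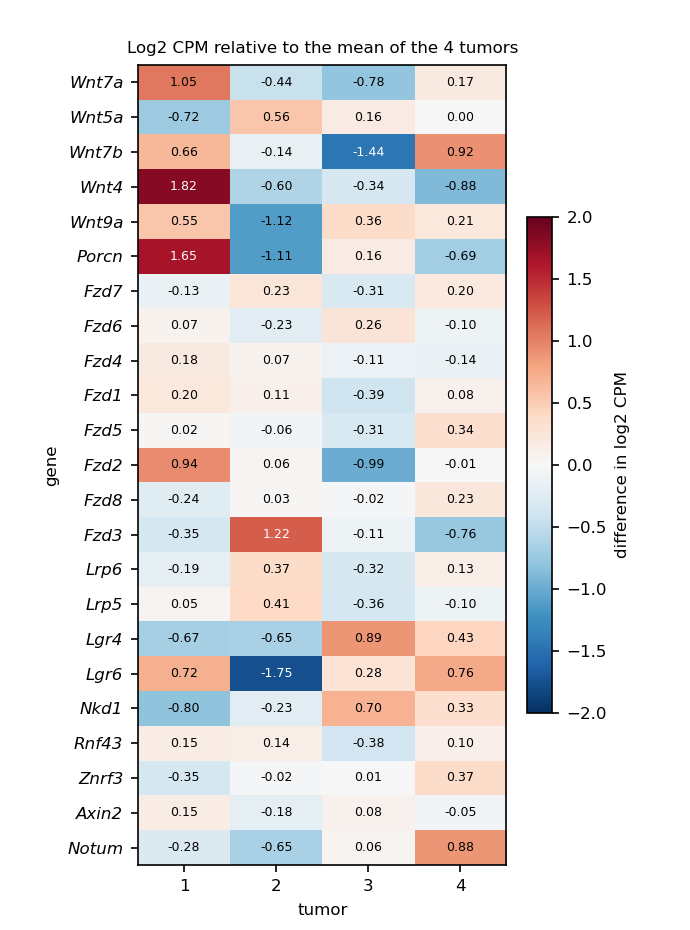
Departure of each tested member from its own mean over the 4 tumors, as a difference in log2 CPM shown by color, with members in rows by role and tumors in columns. Wnt7a, Wnt4, Porcn and Fzd2 have their highest value in tumor 1 and Nkd1 and Lgr4 in tumor 3, while the rows of Fzd4, Fzd8 and Axin2 stay near 0.

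Ordered by level per kilobase, Fzd7 stood at 35.3 CPM per kb, Porcn at 19.4, Lrp6 at 14.2, Fzd6 at 12.97, Lrp5 at 12.3 and Wnt7a at 11.8. Within a family, each member was compared with the next in the order in an exact permutation test that flips the sign of each tumor's difference (two-sided), 17 pairs in all. Because 4 tumors cannot give a p below 0.125, no pair could pass, and the differences are descriptions with their spread. Fzd7 exceeded Fzd6 by 1.44 ± 0.47 on the log2 scale per kilobase, and Wnt7a exceeded Wnt5a by 1.98 ± 1.30, each in 4 of 4 tumors (exact permutation p = 0.125, adjusted p = 0.236 for the latter). The steps from Fzd2 to Fzd8 (1.73 ± 0.90), from Fzd8 to Fzd3 (2.34 ± 0.90), from Rnf43 to Znrf3 (1.41 ± 0.41), from Znrf3 to Notum (2.00 ± 0.47), from Lgr4 to Lgr6 (1.80 ± 1.10), from Fzd6 to Fzd1 (0.50 ± 0.44) and from Fzd1 to Fzd4 (0.31 ± 0.21) also had 1 direction in 4 of 4 tumors. Neighbors that changed places between tumors were Wnt7b and Wnt4 (0.70 ± 1.41), Wnt4 and Wnt9a (0.64 ± 1.09) and Notum and Axin2 (0.17 ± 0.65), each with the same direction in 2 of 4 tumors. For Lrp6 and Lrp5 (0.21 ± 0.20), Fzd5 and Fzd2 (0.61 ± 0.70), Fzd4 and Fzd5 (0.43 ± 0.32), Wnt5a and Wnt7b (1.32 ± 1.39) and Nkd1 and Rnf43 (0.61 ± 0.87) the direction held in 3 of 4. These counts depend on the length used: by the longest transcript, Wnt7b was above Wnt4 and Lrp6 above Lrp5 in every tumor.

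Counted over the families, 19 of the 23 members tested varied beyond counting noise, beside 76.7% of all genes tested, so that passing this test does not set the members apart. A difference of at least 2-fold between the highest and lowest tumor was found for 12 of 23, beside 28.1% of all genes tested. These were all 5 ligands tested, Porcn, Fzd2, Fzd3, Lgr4, Lgr6, Nkd1 and Notum, which include genes of few counts such as Wnt9a, Lgr6 and Notum. Notum was tested only through tumor 4, its highest, since its mean over the other tumors was 0.779 CPM. The median SD of log2 CPM was 0.53 for the 23 members and 0.29 for all 14225 genes. By role it was 0.80 for the ligands tested, 0.26 for the Frizzleds, 0.32 for the co-receptors, 0.99 for the Lgr receptors and 0.29 for the feedback inhibitors. The median depended on single tumors and on low genes, being 0.35 without tumor 1, 0.33 without tumor 2 and 0.30 over the 14 members with a mean of at least 10 CPM, where all genes had 0.25, 0.30 and 0.25.

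**Figure D4:**
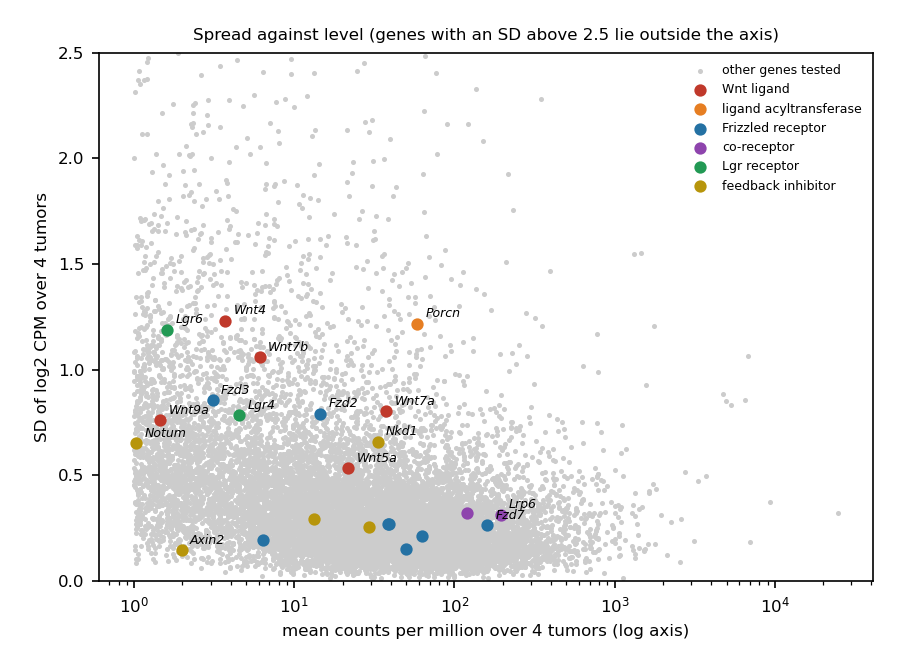
SD of log2 CPM over the 4 tumors against mean level in CPM on a log axis, with the 23 members as colored points by role and the other genes tested as grey points, except those whose SD lies above the axis. Porcn, at 58.2 CPM with an SD of 1.22, and Wnt7a, at 37.5 CPM with 0.80, lie above most genes of like level, while Fzd4 and Fzd6 lie within the bulk.

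Tumor 1 was highest for 9 of the 23 members, beside 31.4% of all genes tested, tumor 2 for 5, beside 20.4%, tumor 3 for 3, beside 30.2%, and tumor 4 for 6, beside 18.0%. The lowest value was in tumor 1 for 5 members, beside 30.4% of all genes tested, in tumor 2 for 6, beside 19.4%, in tumor 3 for 9, beside 32.5%, and in tumor 4 for 3, beside 17.7%. The members lowest in tumor 3 were Wnt7a, Wnt7b, Fzd7, Fzd1, Fzd5, Fzd2, Lrp5, Lrp6 and Rnf43, that is 4 Frizzleds, both co-receptors, a pair of ligands and a ligase. A tumor was called apart where its gap to the nearest other tumor, as a share of the range that all 4 tumors span, passed the 95% limit of Dixon for 4 values. Of the members only Rnf43 met this, with tumor 3 low and a gap of 0.905 of the range, beside 5.86% of all genes tested. With library totals in place of composition-scaled sizes, 0 members met it.

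Genes that work beside the members were read from lists by role. Their counts stand beside the 76.7% of all genes tested that varied beyond counting noise and the 28.1% that differed at least 2-fold. Among partners of ligand reception beside Frizzled, 7 of 9 tested varied beyond counting noise, close to the share of all genes. At least 2-fold was the difference for 4 of 9. Sdc1, a heparan sulfate proteoglycan, was highest by level at 1311, 1056, 806 and 844 CPM. Gpc3, another proteoglycan, was at 118, 243, 312 and 105 CPM (adjusted p = 1.48e-281), with tumors 2 and 3 above tumors 1 and 4. Ptk7, a pseudokinase co-receptor, was at 113, 60.9, 33.9 and 53.9 CPM, with the extremes of Wnt7a and Fzd2 in tumors 1 and 3. Those tumors were also the most frequent extremes among all genes tested.

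The machinery that carries Wnt ligands to the surface had a median SD of log2 CPM of 0.23. Of its 6 genes, 5 passed the test, beside 76.7% of all genes tested, and none differed 2-fold, beside 28.1%. Wls, the carrier that binds acylated ligands, was at 622, 485, 357 and 583 CPM (SD of log2 CPM 0.36), highest in tumor 1 and lowest in tumor 3. Vps26a, a subunit of the retromer that recycles Wls, was at 70.0, 91.9, 120.4 and 107 CPM, in the opposite order at both ends. Either order joins the most frequent extremes among all genes tested. Tmed2 and Snx3, the highest of the list per kilobase, were at 403 to 518 CPM and at 90.0 to 117 CPM.

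Secreted and membrane-bound antagonists were mostly scarce: 7 of the 16 matched genes were tested and 5 passed, beside 76.7% of all genes tested. Igfbp4, a binding protein of insulin-like growth factors that also inhibits Wnt reception, was at 71.5, 93.9, 39.2 and 32.9 CPM, with tumors 1 and 2 above tumors 3 and 4. Dkk2, which binds Lrp5 and Lrp6, was at 14.6, 9.18, 18.9 and 10.6 CPM, and Frzb, a soluble Frizzled-like protein, at 1.32, 3.37, 1.23 and 0.714 CPM.

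Inside the cell, 14 of 15 tested genes of the destruction complex and dishevelled passed the test, beside 76.7% of all genes tested, with a median SD of log2 CPM of 0.22, and 1 differed at least 2-fold, beside 28.1%. Apc, the scaffold that limits beta-catenin, was at 149, 237, 264 and 249 CPM, and Dvl2, a dishevelled protein, at 18.3, 8.94, 8.76 and 11.7 CPM. Tumor 1 was thus lowest for Apc and highest for Dvl2. The leading genes per kilobase, Csnk1a1 (383 to 433 CPM) and Tnks2 (399.9 to 434 CPM), differed little between tumors.

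Of beta-catenin and its nuclear partners, 12 of 14 passed, beside 76.7% of all genes tested, and 3 differed at least 2-fold, beside 28.1%. Ctnnb1, beta-catenin itself, was at 1488, 1630, 1338 and 1650 CPM, or 294 CPM per kb, and Ctbp1, a co-repressor, at 80.7 to 104 CPM. Tcf7l1, a TCF that mostly represses, was at 55.1, 66.3, 28.9 and 60.8 CPM, with tumor 3 low, and Pygo1 was at 3.85, 11.2, 14.3 and 13.8 CPM, with tumor 1 low. Among 8 tested target genes other than the members, 6 passed and 3 differed at least 2-fold, beside the same 76.7% and 28.1%. Sox9, a transcription factor of the distal lung progenitor, was at 29.9, 51.9, 8.89 and 34.7 CPM, 5.84-fold from tumor 3 to tumor 2. Bambi was at 23.0, 61.1, 29.6 and 39.0 CPM, also highest in tumor 2, while Ccnd1 (370 to 485 CPM) and Cd44 (339 to 539 CPM) were the most abundant per kilobase.

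**Figure D5:**
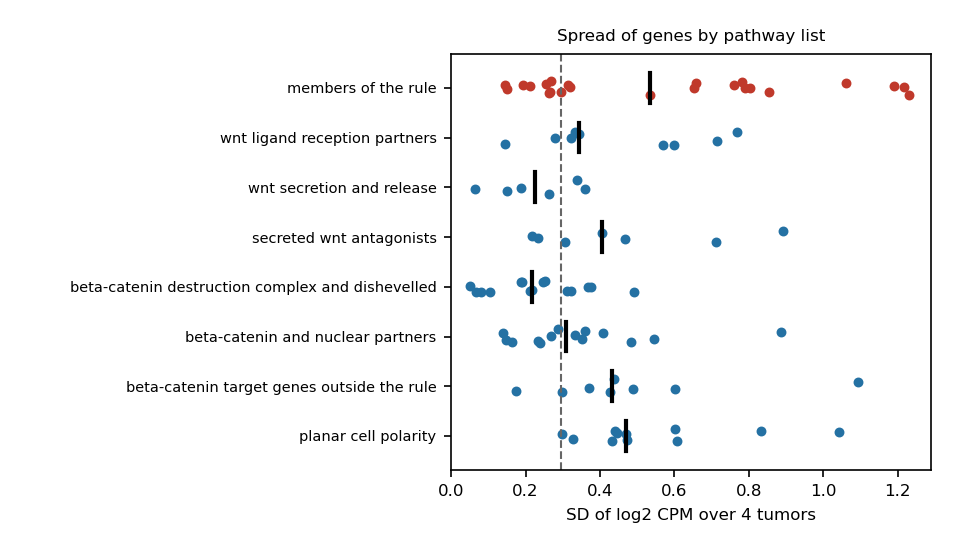
SD of log2 CPM over the 4 tumors for each tested gene of the member set (red) and of 7 lists of pathway genes (blue). Black bars are medians and the dashed line is the median of all 14225 genes tested, 0.29; the medians run from 0.22 for the destruction complex and dishevelled to 0.53 for the members.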

How the data were processed

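RNA of 4 KP lung tumors was sequenced from stranded poly(A) libraries, 1 library per tumor. The authors deposited raw counts per Ensembl gene, and a table of log2 values, made by TMM scaling and voom according to their methods. The submitters' processing notes name bcl2fastq 2.17, cutadapt 1.4.2, HISAT2, featureCounts 1.4.4, edgeR and the mouse build mm10; the strand setting and annotation release are not given in the sources used here. The counts were analysed as deposited, and the combined table equalled the tables of single tumors in 156068 of 156068 values. TMM sizes came from edgeR 4.0.16 in R 4.3.3. For log2 CPM, counts were raised by 0.5 and effective library sizes by 1. Total counts were 8151613 to 8799007, which limits genes near 3 counts to statements of detection.

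Genes with a mean of at least 1 CPM (14225) were tested for spread by chi-square, with Poisson counts in proportion to effective size as the expectation (3 degrees of freedom, SciPy 1.17.1), with Benjamini-Hochberg adjustment and a threshold of 0.05. Neighbors within a family were compared by an exact sign-flip permutation test. The scripts were checked on simulated counts. Samples were grouped by the labels, which give 1 group. Lengths, coordinates and overlapping genes are those of GENCODE M21 on GRCm38, where all 44 members were found; lengths are unions of exons. No tested member overlapped an exon of another gene on its strand, and 6 overlapped an antisense gene. Antisense genes with counts available had at most 11 in a tumor. Gm38058, which overlaps Fzd5 by 1233 nt, was not among the genes counted. Near-identical stretches were found with BLAST 2.17.0 and make counts uncertain.

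Members and lists were chosen with earlier results of these data known. Every member is accounted for; of each pathway list the 2 tested genes with the highest level per kilobase and the 2 with the largest SD of log2 CPM are named, and genes named beyond these were chosen after their values were seen. Of 192 list symbols, 190 were matched, 2 of them by identifier; Tiki1 and Apcdd1l were not. The alternatives were DESeq2 1.42.0 size factors, library totals, no filter, a minimum of 10 CPM, 2 added to each count, the deposited log2 values, other lengths, and leaving out each tumor.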

Additional observations from a re-analysis of the deposited data

Results flagged for a closer look

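Rnf43, the ubiquitin ligase that clears Frizzled, was lower in tumor 3 (22.2 CPM) than in the other 3 tumors (30.9 to 32.0 CPM), with a gap to the nearest tumor of 0.905 of the whole range. The summed Frizzled level per kilobase was also lowest in tumor 3, with a gap of 0.855 of the range. Both pass Dixon's 95% limit for 4 samples. Chance passes this limit in about 1 in 20 groups, which is 1.4 of the 28 results examined, and 2 passed. Tumor 3 was the lowest tumor for 32.5% of all genes tested.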

How the results depend on the processing

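With 1 library per tumor, tumor and library preparation cannot be told apart, and depth limits the 21 members below 1 CPM. No paired comparison of groups was possible because the labels give 1 group. Between 14 and 20 members varied beyond counting noise under the alternatives, which differ in how many were tested. At a minimum of 10 CPM all 14 members tested passed, beside 85.3% of all genes tested. With no filter 20 of 36 passed, beside 53.5%. With 1 tumor left out 16 to 20 of the 23 or 24 tested passed, beside 62.3% to 71.9%. No filter on low counts brought the members tested to 36 (of 21175 genes) and a minimum of 10 CPM to 14 (of 10269). The members with 1 tumor apart were 0 with library totals and 3 with no filter, where 16.3% of all genes were called; the cause was not tested, and this ratio needs 4 tumors. The median SD was 0.30 at a minimum of 10 CPM and 0.33 to 0.66 when 1 tumor was left out. The Wnt7a share was 47.8% without length and 57.8% to 64.6% with 1 tumor left out. Notum minus Axin2 reversed to -0.074 with the longest transcript as length, and ranged from -0.14 without tumor 4 to 0.33 without tumor 2 (chosen after seeing the data). By the longest transcript, Wnt7b minus Wnt4 rose to 1.23 and Lrp6 minus Lrp5 to 0.62, whereas Nkd1 minus Rnf43 fell to 0.17. For single members, 8 of 91 calls were lost and 1 gained when 1 tumor was left out, as given beside those genes; the size factors, library totals and filters changed no call among the members still tested. Added counts and the deposited log2 values leave the chi-square test untouched, since it uses the counts.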

Other observations

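Planar cell polarity genes, which orient cells within a sheet and act with Wnt5a and Fzd6 apart from beta-catenin, varied in all 11 members tested of 13, beside 76.7% of all genes tested, and 7 of 11 differed at least 2-fold, beside 28.1%. Vangl2, a core membrane protein of the pathway, was at 14.2, 12.4, 3.21 and 14.6 CPM in tumors 1 to 4. Celsr2 (4.81 CPM in tumor 3 against 10.3 to 11.99) and Intu (9.996 against 17.6 to 18.9) were low in the same tumor. Prickle2, a cytoplasmic partner, was in the other direction, at 3.08, 4.07, 11.8 and 4.88 CPM, and Prickle1, Prickle3 and Daam1 were also highest in tumor 3. The direction was thus mixed: 6 of the 11 were lowest in tumor 3, beside 32.5% of all genes tested. Another 4 were highest there, beside 30.2%. Scrib, a polarity scaffold, was highest in tumor 1 at 63.6 CPM against 40.6 to 43.2, and Celsr1, an atypical cadherin, was at 54.7, 95.5, 56.9 and 91.6 CPM. The 4 genes Vangl2, Celsr2, Intu and Scrib had 1 tumor apart from the others, beside 5.86% of all genes tested. Tumor 3 had the highest T cell, macrophage, endothelial, smooth muscle and club marker sums. Its epithelial sum was lowest by a small margin (2950 CPM against 3047 in tumor 2), with only Epcam of that list lowest there. The part of these marker sums in the values of the polarity genes was not tested.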
